A study of Komagataella phaffii with 32 samples.

Results

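Komagataella phaffii is a methylotrophic yeast, also known as Pichia pastoris. The comparison described here sets crz1 mutant cells against rim101 mutant cells after 30 min in medium of pH 8.0, and it rests on 5 of the 32 RNA-seq libraries of the series: the 3 crz1 libraries (replicates 1 to 3) and the 2 rim101 libraries (replicates 1 and 2) of that time. The labels name the wild-type parent (WT) X-33, the crz1 strain PJA-001 with the genotype crz1_559, and the rim101 strain PJA-007 with the genotype rim101_117. Each mutant is 1 line, nothing in the labels explains the numbers in the genotypes, and the series text calls the wild type GS115 where the sample labels call it X-33. All 3 strains grew at 28 °C on rich medium with 20 g/L glycerol from an OD600 of 0.2 until it stood near 0.6, and were then pelleted and moved to fresh medium of the same kind with 50 mM TAPS buffer. The cells taken at time 0 came straight from buffer of pH 5.5, and the cells of 15, 30 and 60 min from buffer of pH 8.0. WT cells at 30 min (3 libraries), and crz1 (3) and rim101 (2) cells at time 0, are used below to place the differences.

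Crz1 and Rim101 are transcription factors that fungi use when the surroundings turn alkaline. Crz1 is dephosphorylated by calcineurin when calcium enters the cell, and it then moves into the nucleus; in Saccharomyces cerevisiae it drives genes of calcium pumps, cell wall proteins and sodium and phosphate transporters. Rim101, PacC in filamentous fungi, is cut into its active form by the Rim pathway, and in S. cerevisiae it represses NRG1, itself a repressor of alkaline-induced genes. Alkaline medium also makes iron and copper less soluble and weakens the proton gradient that many nutrient carriers depend on, so metal, phosphate and sodium transport are the textbook targets of the response.

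The libraries were made from poly-A RNA without strand information, and the level used here is RPKM (reads per kilobase of gene, relative to the library's total of reads) after scaling each library to a common median ratio, called scaled RPKM below. These are shares of a library's RNA, so fewer cells and less RNA per cell cannot be told apart. The steps between low RPKM values put the depth at 4.95, 13.0 and 7.44 M reads in crz1 replicates 1 to 3, and at 9.13 and 6.34 M reads in rim101 replicates 1 and 2. In rim101 replicate 1 the low values fell on 2 step sizes, and the depth given is the mean of the depths that these imply. Whether its values are an average of 2 sets of reads was not tested, and the labels do not say. The 5 libraries did not group by strain alone: across genes, crz1 replicate 1 correlated with the rim101 libraries at 0.935 and 0.931 on the log2 scale, and with crz1 replicates 2 and 3 at 0.867 and 0.888. Crz1 replicate 1 and both rim101 libraries had a higher median RPKM (51.6 in the crz1 library, 56.6 and 48.1 in the rim101 libraries) than crz1 replicates 2 and 3 (29.8 and 33.5). Calls are therefore also given for crz1 replicate 1 against the rim101 libraries alone, with the spread pooled over the other groups and the lone library assumed to vary like them. No rim101 library of 30 min was of the lower kind. Nothing in the labels says that replicates of a strain were separate cultures, so p-values measure the spread between these libraries, which may be technical.

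Of 4226 genes tested, 130 (3.08%) differed between crz1 and rim101 cells at 30 min by at least 2-fold with an adjusted p under 0.05 (limma with Benjamini-Hochberg adjustment, fitted on log2(scaled RPKM + 1) over all 32 libraries). Expression was higher in crz1 cells for 54 genes (1.28%) and lower for 76 (1.8%). Transporters were among the genes with the largest differences: PHO89, ZRT1 and FET4-1 were high in crz1 cells and nearly absent or listed at 0 in rim101 cells, and PHO84-1, PHO84-2, FRE3, FRE2-1 and FTR1 were the other way round. The 3 crz1 and the 2 rim101 values did not overlap for any of the 130. Those genes were called on the same values, and the share of all tested genes without overlap was not counted. For genes named by the size of their difference the naming rule also required it. The lack of overlap given here and below is therefore no separate support. Of the 54, 14 were listed at 0 in both rim101 libraries, and of the 76, 19 were listed at 0 in all 3 crz1 libraries. Genes that every cell uses were also listed at 0 here (NUP192, a nuclear pore subunit, in all 3 crz1 libraries), so a 0 is given as listed and no fold is drawn against it. All 130 kept their sign with crz1 replicate 1 alone, which the lack of overlap fixed in advance. As deposited, without the scaling, the median gene lay 0.37 lower in crz1 on the log2 scale, all 130 kept their sign and 116 passed.

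**Figure D1:**
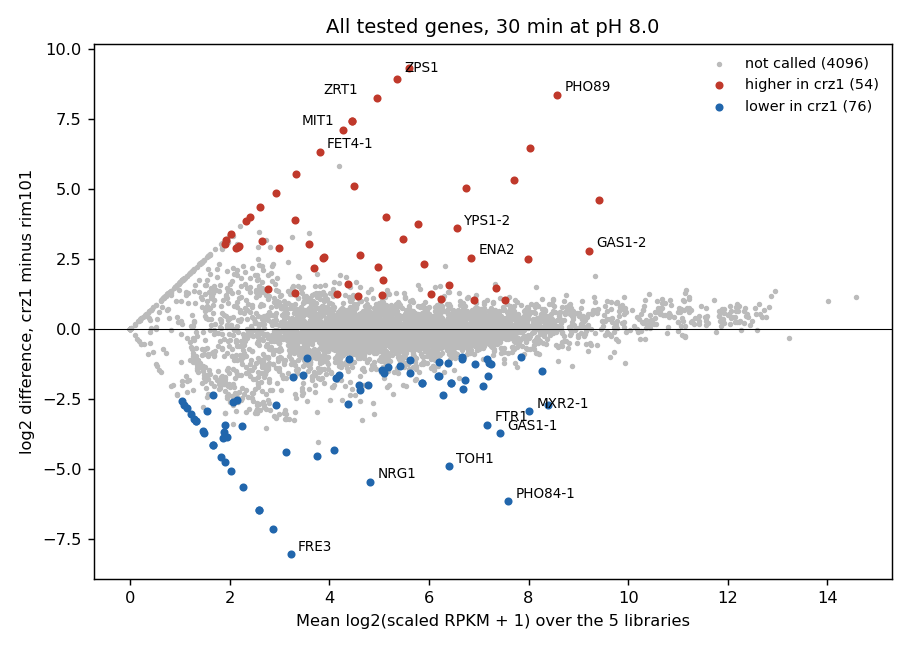
Log2 difference (crz1 minus rim101, 30 min at pH 8.0) of each of the 4226 tested genes against its mean log2(scaled RPKM + 1) over the 5 libraries. Red points are the 54 genes called higher in crz1, blue points the 76 called lower, grey points the rest; PHO89 stands out at high expression on the crz1 side and PHO84-1 on the rim101 side, and the straight edges at low expression are genes listed at 0 in 1 of the strains.

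The genes of the 2 transcription factors themselves were read first. RIM101 (PAS_chr3_0625) had 89.1, 129 and 125 scaled RPKM in crz1 cells, against 27.3 and 17.8 in rim101 cells and 100, 124 and 137 in WT cells. The rim101 values lay below all others, and the crz1 values lay near those of WT. The difference between crz1 and rim101 was 2.30 ± 0.31 (SE) on the log2 scale (adjusted p = 2.31e-05, limma). At time 0 RIM101 had 48.9, 61.0 and 63.1 scaled RPKM in crz1 cells, against 31.2 and 35.7 in rim101 cells, and that difference of 0.76 did not pass (adjusted p = 0.978). The change since time 0 did not pass as different between the mutants either (1.54, adjusted p = 0.133, limma). CRZ1 (PAS_chr2-2_0202) had 38.3, 31.7 and 28.9 scaled RPKM in crz1 cells, against 23.9 and 21.8 in rim101 cells and 22.6, 24.2 and 32.1 in WT cells. Its transcript was thus not lower in crz1 cells (log2 difference 0.50 ± 0.20, adjusted p = 0.296), and since the labels do not say which bases the mutation changed, the CRZ1 level does not check the genotype.

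Of the 15 Rim pathway genes tested, RIM101 was the 1 that was higher in crz1 cells at an adjusted p under 0.05 and NRG1 the 1 that was lower, where 57 of all 4226 genes (1.35%) were higher and 88 (2.08%) lower by that call. By the same call, 84 were higher and 112 lower after quantile normalization, and 62 higher and 135 lower with the kind of library as a covariate. NRG1 (PAS_chr3_1242), whose S. cerevisiae namesake is a zinc-finger repressor that Rim101 holds down, had 0.225, 17.6 and 9.33 scaled RPKM in crz1 cells, against 251 and 296 in rim101 cells and 18.1, 61.2 and 42.5 in WT cells. Every rim101 value lay above every WT and crz1 value. The difference between the mutants was -5.47 ± 0.98 (adjusted p = 7.88e-04), and it was also past the threshold at 15 min (-7.48, adjusted p = 1.95e-05) and 60 min (-4.78, adjusted p = 0.00500). Neither mutant passed against WT for NRG1 (log2 -2.59 for crz1, adjusted p = 0.574; 2.88 for rim101, adjusted p = 0.250).

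Phosphate transporter genes differed in both directions. In S. cerevisiae, Pho84 carries phosphate together with protons and Pho89 together with sodium, and Pho89 works at alkaline pH. PHO89 (PAS_chr2-1_0235) had 2493, 5291 and 4435 scaled RPKM in crz1 cells, against 14.0 and 8.25 in rim101 cells. WT cells had 2418, 3810 and 5620, a range that holds the crz1 values, while both rim101 values were far below. The difference between the mutants was 8.36 ± 0.66 on the log2 scale (adjusted p = 4.08e-09).

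The PHO84 genes ran opposite. PHO84-1 (PAS_chr4_0337) had 36.6, 33.6 and 31.9 scaled RPKM in crz1 cells, against 2576 and 2459 in rim101 cells and 15.7, 34.1 and 37.1 in WT cells (crz1 minus rim101 -6.17 ± 0.76, adjusted p = 5.80e-06). PHO84-2 (PAS_chr3_0141) was listed at 0 in all 3 crz1 and all 3 WT libraries and had 87.0 and 89.0 scaled RPKM in rim101 cells (adjusted p = 1.06e-13). At time 0 PHO84-2 was expressed in both mutants, with 283, 256 and 251 scaled RPKM in crz1 cells and 258 and 213 in rim101 cells, so the strains parted after the shift.

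Of the 16 phosphate genes tested, 2 were higher in crz1 cells (PHO89 and PHO2) and 4 were lower (PHO84-1, PHO84-2, PHO5 and PHO86), with a list median of 0.02 beside -0.01 over all genes. Of all 4226 tested genes, 57 (1.35%) were higher and 88 (2.08%) lower at an adjusted p under 0.05. PHO5 and PHO86 fall outside the rule by which the other genes were named and are given because they complete the count. PHO5, an acid phosphatase secreted in S. cerevisiae, had 66.7, 61.7 and 60.1 scaled RPKM in crz1 cells, against 236 and 220 in rim101 cells (-1.84 ± 0.34, adjusted p = 0.00105). PHO86, which S. cerevisiae needs to bring Pho84 out of the endoplasmic reticulum, had 84.1, 59.2 and 57.6 scaled RPKM in crz1 cells, against 137 and 128 in rim101 cells (-0.995 ± 0.25, adjusted p = 0.0189). PHO2, a homeobox factor of phosphate gene control in S. cerevisiae, had 19.9, 35.3 and 36.0 scaled RPKM in crz1 cells, against 6.47 and 2.51 in rim101 cells (2.57 ± 0.54, adjusted p = 0.00433). The groups did not overlap for any of the 3, and with crz1 replicate 1 alone none of the 3 passed (adjusted p = 0.0714 for PHO5, 1.00 for PHO86, 0.368 for PHO2), while PHO89 and both PHO84 genes did. PHO2 also lost the call without rim101 replicate 2 (adjusted p = 0.192).

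**Figure D2:**
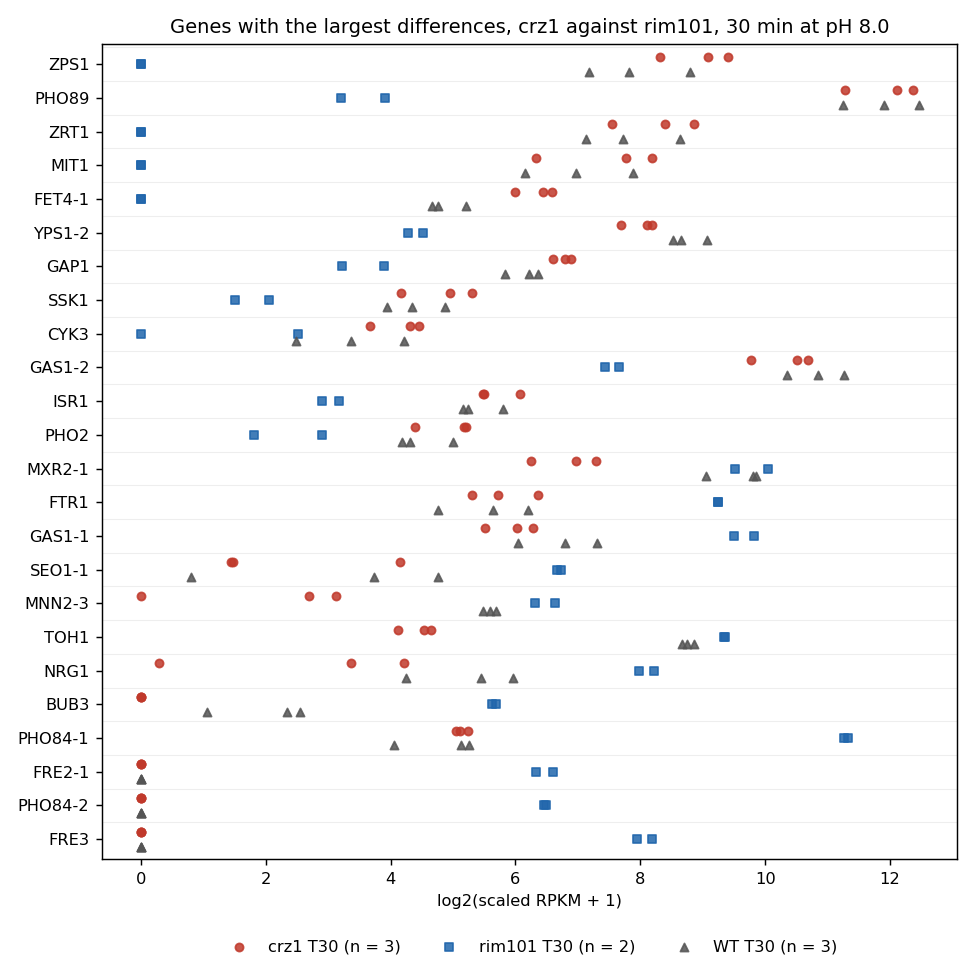
Values of each library, as log2(scaled RPKM + 1), for the 12 genes with symbols and the largest positive differences (top, ZPS1 to PHO2) and the 12 with the largest negative ones (bottom, MXR2-1 to FRE3) by the naming rule, in crz1 (red circles), rim101 (blue squares) and WT cells (grey triangles) at 30 min. For PHO89 the crz1 and WT points mix and the rim101 points sit apart; for TOH1 and MNN2-3 the rim101 and WT points lie near each other and the crz1 points sit apart.

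Iron genes were also split. Of 26 iron and copper genes tested, 4 were lower in crz1 cells (FRE3, FRE2-1, FTR1 and FET3) and 2 were higher (FET4-1 and SIT1-1), with a list median of 0.21. At the same adjusted p under 0.05, 88 of all 4226 tested genes (2.08%) were lower and 57 (1.35%) higher. The 4 lower iron genes belong to reductive high-affinity uptake: ferric reductases of the FRE family release iron as Fe(II), and the Fet3 oxidase with the Ftr1 permease brings it across the plasma membrane. FRE3 (PAS_chr4_0240) was listed at 0 in all 3 crz1 and all 3 WT libraries and had 289 and 246 scaled RPKM in rim101 cells (adjusted p = 5.67e-15). FRE2-1 (PAS_chr4_0399) was likewise listed at 0 in those 6 libraries and had 95.6 and 79.3 scaled RPKM in rim101 cells (adjusted p = 2.61e-08). Both were also listed at 0 in all crz1 and rim101 libraries of time 0.

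FTR1 (PAS_chr1-4_0040) had 81.2, 38.6 and 52.0 scaled RPKM in crz1 cells, against 602.5 and 602.3 in rim101 cells and 72.4, 49.0 and 26.1 in WT cells (crz1 minus rim101 -3.44 ± 0.46, adjusted p = 2.00e-05). FET3, outside the naming rule, had 80.7, 225 and 212 scaled RPKM in crz1 cells, against 1042 and 1039 in rim101 cells and 75.4, 206 and 161 in WT cells (-2.72 ± 0.55, adjusted p = 0.00307). For both genes the rim101 values lay above every crz1 and WT value.

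FET4-1 (PAS_chr2-2_0009), a low-affinity Fe(II) transporter by its annotation, had 62.5, 95.4 and 85.6 scaled RPKM in crz1 cells, was listed at 0 in both rim101 libraries, and had 26.1, 24.4 and 36.1 in WT cells (adjusted p of crz1 against rim101 1.66e-09). It was also listed at 0 in both rim101 libraries of time 0, when crz1 cells had 5.04, 5.43 and 7.39 (adjusted p = 0.00338). SIT1-1, named for the siderophore-iron transporter of S. cerevisiae and outside the naming rule, had 269, 706 and 679 scaled RPKM in crz1 cells, against 84.0 and 93.6 in rim101 cells (2.50 ± 0.64, adjusted p = 0.0244). Its difference was larger at time 0 (5.07, adjusted p = 6.86e-05), and it did not pass at 30 min with crz1 replicate 1 alone (adjusted p = 1.00).

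Zinc uptake genes went both ways. Of 7 zinc genes tested, ZRT1 and ZPS1 were higher in crz1 cells and ZRT2 was lower. Over all 4226 tested genes, 57 (1.35%) were higher and 88 (2.08%) lower at an adjusted p under 0.05. ZRT1 (PAS_chr3_0516), the high-affinity zinc transporter, had 187, 462 and 337 scaled RPKM in crz1 cells, was listed at 0 in both rim101 libraries, and had 138, 210 and 396 in WT cells (adjusted p of crz1 against rim101 5.80e-06). ZPS1 (PAS_chr3_0517), a GPI-anchored protein whose S. cerevisiae namesake responds to zinc, had 316, 678 and 545 scaled RPKM in crz1 cells, was listed at 0 in both rim101 libraries, and had 143, 224 and 445 in WT cells (adjusted p = 2.25e-07). ZRT1 and ZPS1 are direct neighbours in the ASM2700v1 assembly. ZRT2 (PAS_chr4_0516), the low-affinity transporter, had 82.5, 126 and 115 scaled RPKM in crz1 cells, against 217 and 231 in rim101 cells (-1.07 ± 0.29, adjusted p = 0.0338). The ZRT2 call did not hold with crz1 replicate 1 alone (adjusted p = 0.0685), nor without crz1 replicate 1 (0.102), crz1 replicate 3 (0.0681), rim101 replicate 1 (0.180) or rim101 replicate 2 (0.284).

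Among 26 genes of monovalent cation and proton transport, ENA2 was higher in crz1 cells and NHA1 and KHA1 were lower. By that adjusted call 57 of all 4226 tested genes (1.35%) were higher and 88 (2.08%) lower. ENA2 (PAS_chr1-1_0428) encodes a P-type sodium pump, the class that extrudes sodium at alkaline pH in yeasts. It had 224, 233 and 239 scaled RPKM in crz1 cells, against 45.6 and 32.9 in rim101 cells and 255, 247 and 236 in WT cells. The spread within each strain was small beside the gap, and the difference was 2.55 ± 0.15 (adjusted p = 1.22e-11). At time 0 it was already 1.11 (adjusted p = 1.14e-04), with 45.5, 58.5 and 58.4 scaled RPKM in crz1 cells and 24.0 and 24.9 in rim101 cells.

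NHA1, a sodium-proton antiporter of the plasma membrane, had 0, 1.32 and 0 scaled RPKM in crz1 cells, against 20.4 and 12.7 in rim101 cells (adjusted p = 0.00353). KHA1, an intracellular potassium-proton antiporter, had 33.2, 24.8 and 27.9 scaled RPKM in crz1 cells, against 75.9 and 71.5 in rim101 cells (-1.34 ± 0.29, adjusted p = 0.00487). Groups did not overlap for either. NHA1 lost the call without rim101 replicate 1 (adjusted p = 0.0862), and KHA1 lost it without rim101 replicate 1 (0.0769), without rim101 replicate 2 (0.0578), as deposited (0.0574) and with crz1 replicate 1 alone (0.312).

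The calcium list, which holds calcineurin and the pumps that Crz1 is known to control in S. cerevisiae, had 13 tested genes, of which 1 was lower in crz1 cells and none was higher by limma (3 lower and 1 higher at an unadjusted p under 0.05). Over all 4226 tested genes, 88 were lower and 57 higher, and at that unadjusted p 243 were lower and 276 higher. The list median was -0.11, and 3 genes were lower as deposited and none after quantile normalization. PMC1 (PAS_chr1-1_0117), the vacuolar calcium pump of S. cerevisiae, had 14.5, 25.7 and 25.7 scaled RPKM in crz1 cells, against 68.8 and 61.3 in rim101 cells and 50.5, 67.5 and 77.8 in WT cells. All 3 crz1 values lay below the others, and the difference between the mutants was -1.57 ± 0.41 (adjusted p = 0.0263). This call was close to the threshold: it did not hold after quantile normalization (adjusted p = 0.0539), with crz1 replicate 1 alone (0.0528), or without crz1 replicate 1 (0.0923), rim101 replicate 1 (0.244) or rim101 replicate 2 (0.166).

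At the cell surface, individual genes differed strongly in both directions. Among 43 cell wall genes tested, 1 was higher in crz1 cells (GAS1-2) and 1 was lower (GAS1-1). At an unadjusted p under 0.05 by limma, 5 cell wall genes were higher and 5 lower. Over all 4226 tested genes, 57 (1.35%) were higher and 88 (2.08%) lower by the adjusted call, and 276 and 243 by the unadjusted one. Gas1 proteins are glucanosyltransferases that lengthen the beta-1,3-glucan of the wall. GAS1-2 (PAS_chr1-3_0227) had 870, 1653 and 1460 scaled RPKM in crz1 cells, against 172 and 200 in rim101 cells and 1307, 1836 and 2464 in WT cells (2.78 ± 0.38, adjusted p = 3.14e-05). GAS1-1 (PAS_chr1-3_0226) had 44.5, 76.9 and 63.7 scaled RPKM in crz1 cells, against 906 and 726 in rim101 cells and 64.7, 109 and 156 in WT cells (-3.73 ± 0.46, adjusted p = 6.19e-06). GAS1-1 and GAS1-2 are direct neighbours, so adjacent members of 1 family differed in opposite directions. For both, the rim101 values stood apart from all crz1 and WT values.

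YPS1-2 (PAS_chr3_1157), a yapsin-type aspartyl protease of the cell surface by its name, was the 1 gene higher in crz1 cells among 6 such proteases tested. By the same adjusted call 57 of all 4226 tested genes (1.35%) were higher. YPS1-2 had 207, 290 and 275 scaled RPKM in crz1 cells, against 22.02 and 18.4 in rim101 cells and 365.4, 402 and 533 in WT cells (3.59 ± 0.34, adjusted p = 1.01e-07). Here the rim101 values were lowest, and the crz1 values lay below those of WT by 0.75, which did not pass (adjusted p = 1.00).

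TOH1 and MNN2-3 departed from the pattern of the transporters, because their crz1 values were the ones that stood apart. TOH1 (PAS_chr2-2_0271), annotated as an endo-1,3-beta-glucosidase, had 16.4, 24.0 and 22.2 scaled RPKM in crz1 cells, against 656 and 647 in rim101 cells and 407, 465 and 429 in WT cells. Its difference between the mutants was -4.92 ± 0.23 (adjusted p = 1.06e-13), and -2.67 at time 0 (adjusted p = 9.19e-08), when crz1 cells had 27.1, 22.7 and 23.0 and rim101 cells 127 and 201. MNN2-3 (PAS_chr3_0787), an alpha-1,2-mannosyltransferase of the kind that branches mannan, had 0, 7.76 and 5.43 scaled RPKM in crz1 cells, against 97.9 and 78.2 in rim101 cells and 47.1, 43.4 and 50.5 in WT cells (adjusted p = 9.35e-05 between the mutants). At time 0 MNN2-3 values overlapped between the mutants, with 32.1, 30.5 and 28.1 in crz1 cells and 28.1 and 47.7 in rim101 cells.

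Of 34 protein glycosylation genes tested, MNN2-3 and ALG11, a mannosyltransferase that builds the N-glycan precursor, were lower in crz1 cells. Of all 4226 tested genes, 88 (2.08%) were lower at an adjusted p under 0.05. ALG11 had 6.17, 3.93 and 5.15 scaled RPKM in crz1 cells, against 18.4 and 19.3 in rim101 cells (-1.72 ± 0.48, adjusted p = 0.0464), and lost the call whichever of the 5 libraries was left out (adjusted p between 0.0517 and 0.307), as deposited (0.0747) and with the replicate number as a block (0.0618).

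**Figure D3:**
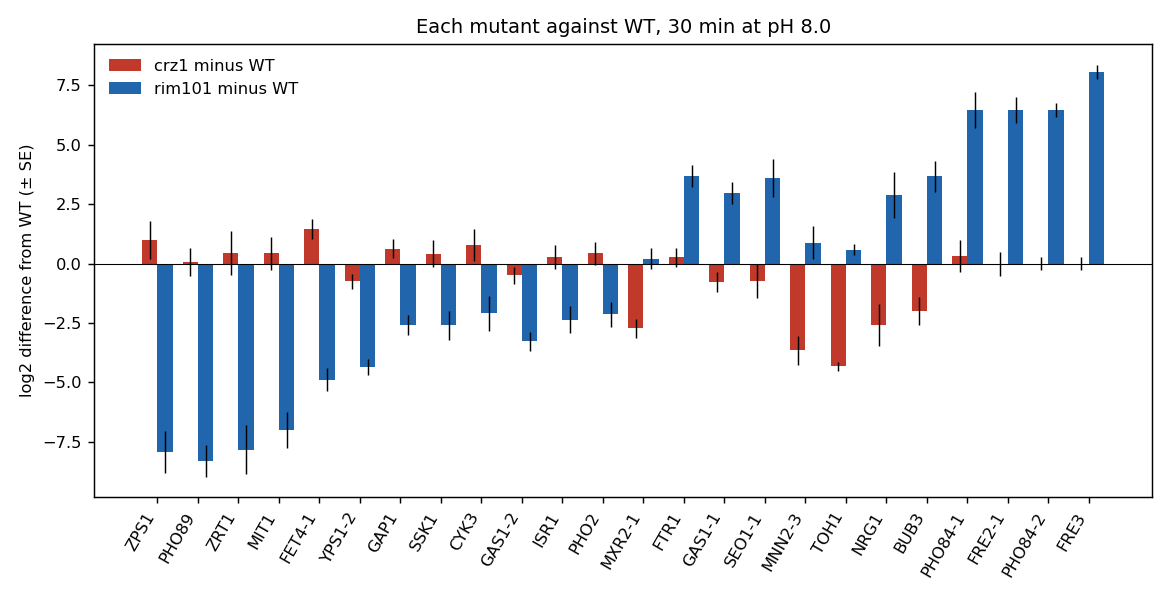
Difference of crz1 (red) and rim101 cells (blue) from the same 3 WT libraries at 30 min for the 24 genes of the plot of library values, on the log2(scaled RPKM + 1) scale, with standard errors from the limma fit. For FRE3, PHO84-2 and FRE2-1 the 3 WT and 3 crz1 libraries were listed at 0, so their bars depend on the added 1 and give no fold; TOH1, MNN2-3 and MXR2-1 are the genes with a long red and a short blue bar.

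Set against WT cells, which both differences share, some named genes passed in rim101 cells and not in crz1 cells, some the other way round, and others, such as NRG1, CYK3, GTT1, GUP1 and KHA1, in neither; whether the 2 differences from WT differ is the contrast between the mutants given above. PHO89 differed from WT by 0.06 in crz1 cells (adjusted p = 1.00) and by -8.30 in rim101 cells (adjusted p = 5.49e-09). ENA2 differed by -0.08 in crz1 cells (adjusted p = 1.00) and by -2.63 in rim101 cells (adjusted p = 8.22e-12). PHO84-1 differed by 0.31 in crz1 cells (adjusted p = 1.00) and by 6.48 in rim101 cells (adjusted p = 3.70e-06). These 3 genes passed in rim101 cells alone, as did ZRT1, ZPS1, GAS1-1, GAS1-2, YPS1-2 and FTR1. TOH1 differed from WT by -4.33 in crz1 cells (adjusted p = 4.51e-13) and by 0.59 in rim101 cells (adjusted p = 0.400). MNN2-3 differed by -3.64 in crz1 cells (adjusted p = 0.00197) and by 0.89 in rim101 cells (adjusted p = 0.587). PMC1 differed by -1.55 in crz1 cells (adjusted p = 0.0459, close to the threshold) and by 0.02 in rim101 cells (adjusted p = 0.995), so these last 3 passed in crz1 cells alone. No alternative fits are given for the differences from WT. WT replicate 1 was of the higher kind (median RPKM 51.5), and WT replicates 2 and 3 of the lower (35.4 and 27.1). Both rim101 libraries were of the higher kind, so strain and kind are not fully separate here either.

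MXR2-1 (PAS_chr2-1_0008), a methionine sulfoxide reductase that repairs oxidised protein, was also low in crz1 cells. It had 75.0, 156 and 125 scaled RPKM in crz1 cells, against 729 and 1057 in rim101 cells and 528, 897 and 924 in WT cells (-2.94 ± 0.44 between the mutants, adjusted p = 7.66e-05). Of 34 oxidative stress genes tested, MXR2-1, GTT1 and YAP1 were lower in crz1 cells and none was higher by limma (4 lower and 1 higher at an unadjusted p under 0.05). Of all 4226 tested genes, 88 were lower and 57 higher by the adjusted call, and 243 lower and 276 higher by the unadjusted one. GTT1, a glutathione transferase, had 64.3, 39.0 and 47.8 scaled RPKM in crz1 cells, against 196 and 191 in rim101 cells (-1.95 ± 0.36, adjusted p = 0.00106). GTT1 overlaps PAS_chr2-2_0115 and both are deposited with the same values, so reads of the 2 genes cannot be told apart. YAP1, the transcription factor of the oxidative response, had 82.6, 87.4 and 86.8 scaled RPKM in crz1 cells, against 118 and 154 in rim101 cells (-0.65 ± 0.14, adjusted p = 0.00475). With crz1 replicate 1 alone neither GTT1 (adjusted p = 0.164) nor YAP1 (0.0845) passed, and YAP1 also lost the call without rim101 replicate 2 (0.282).

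GAP1 (PAS_chr1-1_0030), the general amino acid permease, was the leading nitrogen gene. It had 96.3, 110 and 117 scaled RPKM in crz1 cells, against 13.8 and 8.34 in rim101 cells and 73.0, 56.2 and 81.5 in WT cells. Every rim101 value was the lowest, and the difference between the mutants was 3.21 ± 0.44 (adjusted p = 2.53e-05). It was the 1 gene called among 31 sugar and nitrogen permeases, where 57 of all 4226 tested genes (1.35%) were called higher. As deposited 2 permeases were higher, and 4 after quantile normalization. At an unadjusted p under 0.05 by limma 7 were higher and none lower, where 276 of all 4226 tested genes were higher and 243 lower. Of 27 genes of glutamate and ammonium metabolism, GAP1 and GLN3 were higher in crz1 cells; GLN3, an activator of nitrogen-repressed genes, had 50.2, 60.2 and 56.7 scaled RPKM in crz1 cells, against 36.1 and 32.4 in rim101 cells (0.68 ± 0.19, adjusted p = 0.0390). GLN3 lost the call as deposited (adjusted p = 0.485), with crz1 replicate 1 alone (0.898) and without crz1 replicate 2 (0.168), crz1 replicate 3 (0.124), rim101 replicate 1 (0.137) or rim101 replicate 2 (0.398).

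MIT1 (PAS_chr3_0251) had 79.7, 290 and 216 scaled RPKM in crz1 cells, was listed at 0 in both rim101 libraries, and had 70.4, 124 and 234 in WT cells (adjusted p of crz1 against rim101 3.56e-07). The symbol placed it in the methanol and peroxisome list, where it was the 1 gene called among 22 tested, but the deposited description, cAMP-independent regulatory protein, does not tie it to methanol. Of all 4226 tested genes, 57 (1.35%) were called higher at an adjusted p under 0.05. Among other named genes, SSK1, the osmosensing response regulator, had 16.9, 38.5 and 30.0 scaled RPKM in crz1 cells, against 3.14 and 1.85 in rim101 cells (3.03 ± 0.62, adjusted p = 0.00332). ISR1, a protein kinase, had 66.7, 44.0 and 43.6 scaled RPKM in crz1 cells, against 8.02 and 6.47 in rim101 cells (2.65 ± 0.56, adjusted p = 0.00487), and differed at time 0 as well (adjusted p = 0.00428). CYK3, which takes part in cytokinesis in S. cerevisiae, had 11.7, 20.8 and 18.8 scaled RPKM in crz1 cells, against 4.72 and 0 in rim101 cells (adjusted p = 0.0283). The groups did not overlap for any of the 3, which the naming rule required. Without rim101 replicate 2 none of them passed (adjusted p = 0.0975 for SSK1, 0.0976 for ISR1, 0.756 for CYK3), and CYK3 also lost the call without crz1 replicate 2 (0.116) or crz1 replicate 3 (0.1). With crz1 replicate 1 alone, SSK1 (0.329) and CYK3 (0.703) did not pass, and with the kind of library as a covariate CYK3 did not (0.0775).

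BUB3 (PAS_chr2-1_0515), a spindle checkpoint protein, was listed at 0 in all 3 crz1 libraries and had 48.1 and 50.6 scaled RPKM in rim101 cells and 4.83, 4.06 and 1.08 in WT cells (adjusted p of crz1 against rim101 2.78e-06). SEO1-1 (PAS_chr1-4_0613), a probable transporter, had 16.8, 1.72 and 1.78 scaled RPKM in crz1 cells, against 100.1 and 105 in rim101 cells and 12.4, 26.0 and 0.740 in WT cells (-4.34 ± 0.81, adjusted p = 0.00127). In SEO1-1 the crz1 library with the higher median RPKM was the one nearest to rim101, and with it alone the call was lost (adjusted p = 0.438).

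The remaining called members of the lists were few. Over all 4226 tested genes, 57 (1.35%) were higher and 88 (2.08%) lower at an adjusted p under 0.05. Of 53 genes of sterol and membrane lipid synthesis, OSH3, an oxysterol-binding protein, was lower in crz1 cells with 3.71, 8.22 and 7.10 scaled RPKM, against 23.0 and 19.0 in rim101 cells (-1.64 ± 0.28, adjusted p = 5.57e-04). CSH1, a subunit of an inositol sphingolipid synthase, had 81.4, 50.8 and 48.2 scaled RPKM in crz1 cells, against 145 and 128 in rim101 cells (-1.20 ± 0.30, adjusted p = 0.0183). GUP1, which remodels GPI anchors and in S. cerevisiae affects glycerol uptake, was the 1 called among 7 glycerol genes, with 9.60, 9.41 and 10.2 scaled RPKM in crz1 cells, against 38.8 and 31.9 in rim101 cells (-1.75 ± 0.32, adjusted p = 0.00106). The groups did not overlap for any of these.

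Among 32 chaperone genes TMA10 was the 1 called: it was listed at 0 in all 3 crz1 libraries and had 10.2 and 14.4 scaled RPKM in rim101 cells (adjusted p = 0.00542). MRP8 was the 1 called among 57 mitochondrial ribosomal proteins, with 76.2, 40.03 and 46.7 scaled RPKM in crz1 cells, against 113 and 127 in rim101 cells (-1.19 ± 0.33, adjusted p = 0.0422). MRP8 lost the call as deposited (adjusted p = 0.128) and with the replicate number as a block (0.0533), and CSH1 as deposited (0.111). With crz1 replicate 1 alone CSH1 (adjusted p = 1.00), TMA10 (0.142) and MRP8 (1.00) did not pass. CSH1 and MRP8 lost the call without crz1 replicate 2 (0.0943 and 0.233), crz1 replicate 3 (0.110 and 0.161), rim101 replicate 1 (0.220 and 0.188) or rim101 replicate 2 (0.114 and 0.355), and TMA10 lost it without rim101 replicate 2 (0.114). Among 32 transcription factors of carbon, stress and filamentation control, NRG1 and YAP1 were lower and none was higher by limma (2 lower and 5 higher at an unadjusted p under 0.05). By the adjusted call 88 of all 4226 tested genes were lower and 57 higher, and by the unadjusted one 243 and 276.

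With the main scaling no gene passed limma's test in 9 lists: glycolysis (15 genes tested), gluconeogenesis and the glyoxylate cycle (19), the tricarboxylic acid cycle (21), the respiratory chain and ATP synthase (51), trehalose and glycogen metabolism (10), folding in the endoplasmic reticulum (22), sulfate assimilation (33), ribosome biogenesis (122) and cytosolic ribosomal proteins (74). After quantile normalization 1 gene was higher in the trehalose and glycogen list and 1 in the sulfate list. The list medians of carbon metabolism lay above the median of all genes (-0.01), at 0.72 for glycolysis, 0.64 for gluconeogenesis and 0.57 for the tricarboxylic acid cycle. Cytosolic ribosomal proteins had a median of 0.43. With crz1 replicate 1 alone the same medians were 0.10, 0.04, 0.17 and 0.06. At an unadjusted p under 0.05, glycolysis, gluconeogenesis, trehalose, sulfate and ribosome biogenesis genes had 1 higher gene each, the tricarboxylic acid cycle 3 higher, the respiratory chain 4 higher and 1 lower, and the other 2 lists none, where 276 of all tested genes were higher and 243 lower.

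Several genes with no symbol were among those with the largest differences. PAS_chr4_0359, an uncharacterized protein, had 672, 677 and 566 scaled RPKM in crz1 cells, was listed at 0 in both rim101 libraries, and had 983, 950.3 and 1019 in WT cells (adjusted p of crz1 against rim101 1.05e-07). PAS_chr4_0363, also uncharacterized, had 111, 221 and 199 scaled RPKM in crz1 cells, was listed at 0 in both rim101 libraries, and had 56.0, 83.4 and 73.8 in WT cells (adjusted p = 1.72e-06). These lie close together, so the genes around them were read too, a choice made after their values were seen. Between them PAS_chr4_0360 had 65.6, 119 and 96.3 scaled RPKM in crz1 cells, against 0.889 and 2.83 in rim101 cells (5.09 ± 1.10, adjusted p = 0.00529). PAS_chr4_0361, described as holding the N-terminal domain of hyphally regulated cell wall proteins, had 413, 493 and 389 scaled RPKM in crz1 cells, against 21.9 and 6.60 in rim101 cells (5.03 ± 0.76, adjusted p = 8.69e-05). In all 4 genes the rim101 values were the lowest and lay apart from crz1 and WT. Of the genes just outside, PAS_chr4_0358 (1.87, adjusted p = 0.543) and PAS_chr4_0365 (1.90, adjusted p = 0.539) did not pass, PAS_chr4_0949 did (3.14, adjusted p = 0.00744), and AMN1 had 58.2, 35.9 and 33.6 scaled RPKM in crz1 cells, against 45.5 and 33.6 in rim101 cells, with overlapping groups. PAS_chr4_0360 and PAS_chr4_0949 did not pass with crz1 replicate 1 alone (adjusted p = 0.229 and 0.560).

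**Figure D4:**
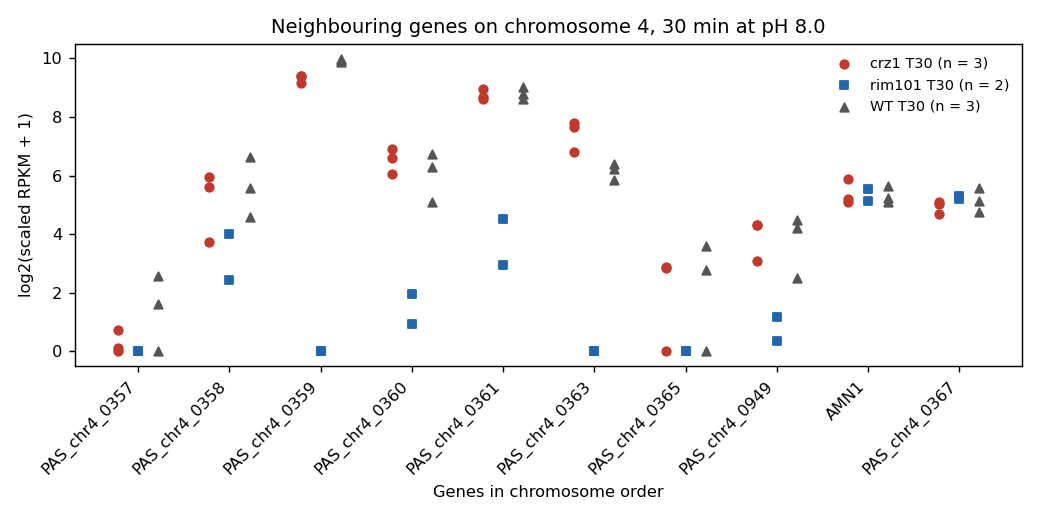
Values of each library, as log2(scaled RPKM + 1), of 10 genes in chromosome order around PAS_chr4_0359 in crz1 (red circles), rim101 (blue squares) and WT cells (grey triangles) at 30 min. From PAS_chr4_0359 to PAS_chr4_0363 the rim101 squares lie below every red and grey point, and for AMN1 and PAS_chr4_0367 the strains mix.

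PAS_chr1-1_0210, uncharacterized, had 41.9, 266 and 235 scaled RPKM in crz1 cells, was listed at 0 in both rim101 libraries, and had 9.90, 54.2 and 59.7 in WT cells (adjusted p = 0.0211). It lost the call with crz1 replicate 1 alone (0.760) and without crz1 replicate 2 (0.0963), crz1 replicate 3 (0.0940), rim101 replicate 1 (0.163) or rim101 replicate 2 (0.183). On the lower side, PAS_chr2-1_0270, described as a plasma membrane protein of protoporphyrin uptake and heme efflux, was listed at 0 in all 3 crz1 and all 3 WT libraries and had 130 and 157 scaled RPKM in rim101 cells (adjusted p = 1.52e-07). PAS_chr1-4_0410, described as a regulator of mannosylphosphate transfer, was listed at 0 in the same 6 libraries and had 29.4 and 23.6 scaled RPKM in rim101 cells (adjusted p = 3.01e-09). PAS_chr1-1_0101, with an arrestin-like domain, was listed at 0 in the 3 crz1 libraries and had 48.2 and 22.3 scaled RPKM in rim101 cells and 14.4, 9.42 and 13.4 in WT cells (adjusted p = 6.20e-08).

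The design also has both mutants at time 0. All crz1 and rim101 libraries of time 0 were of the lower kind by median RPKM (29.6, 26.1 and 21.7 in crz1 cells, 24.6 and 26.8 in rim101 cells). Both rim101 libraries of 30 min were of the higher kind (56.6 and 48.1). In rim101 cells the kind of library thus changed with time, and kind and time cannot be told apart. At time 0, 15 genes (0.355%) differed between crz1 and rim101 cells by at least 2-fold, 8 higher (0.189%) and 7 lower (0.166%) in crz1. The change from time 0 to 30 min differed between the mutants for 43 genes (1.02%), 17 with the more positive change in crz1 cells (0.402%) and 26 with the more negative one (0.615%). PHO89 had 55.3, 329 and 297 scaled RPKM in crz1 cells at time 0, below their 30 min values, and 31.4 and 27.9 in rim101 cells, above theirs. The changes differed by 5.83 (adjusted p = 7.52e-04). PHO84-1 had 53.4, 181 and 134 scaled RPKM in crz1 cells at time 0 and 49.4 and 27.3 in rim101 cells, and its changes differed by -7.72 (adjusted p = 1.50e-04). TOH1 and ENA2, apart already at time 0, parted further, by -2.24 (adjusted p = 2.03e-04) and 1.44 (adjusted p = 2.15e-04). The ENA2 interaction did not hold as deposited (adjusted p = 0.339).

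The libraries of 15 and 60 min do not enter the group means of the 30 min difference, but they share its fit, with 1 scaling and 1 estimate of the spread, and the labels do not say whether they came from the same cultures. Of the 54 genes higher in crz1 cells at 30 min, 23 were also higher at 15 min with an adjusted p under 0.05 and 25 at 60 min, where 0.686% and 0.876% of all tested genes passed in that direction. Of the 76 genes lower at 30 min, 61 were also lower at 15 min and 45 at 60 min, where 2.41% and 1.56% of all tested genes passed. Time 0 gave 7 of the 54 and 3 of the 76. PHO89 differed by 6.54 at 15 min and 6.56 at 60 min (adjusted p = 3.25e-07 and 3.51e-07), and PHO84-1 by -4.60 and -5.92 (adjusted p = 3.17e-04 and 1.29e-05). ZPS1, which differed at 15 min by a value past the threshold (adjusted p = 2.18e-06), did not pass at 60 min (adjusted p = 0.644).

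**Figure D5:**
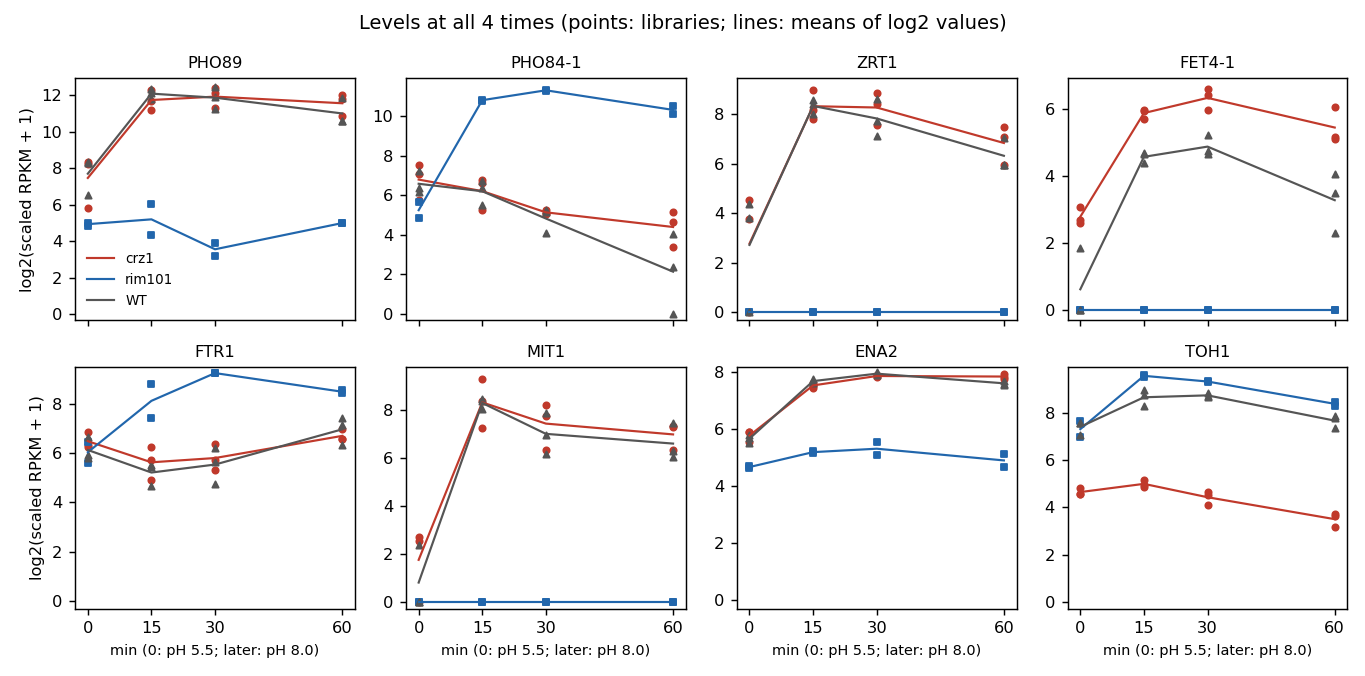
Levels of 8 genes at 0, 15, 30 and 60 min in crz1 (red), rim101 (blue) and WT cells (grey), as log2(scaled RPKM + 1); points are libraries and lines join the means of the log2 values. PHO89, ZRT1, FET4-1, MIT1 and ENA2 have the rim101 line below the crz1 line at 30 min and PHO84-1 and FTR1 have it above, while for TOH1 the crz1 line stands apart from both others at all 4 times.

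The authors' deposited table compares each mutant at 30 min with WT at time 0 and holds no direct contrast of the mutants. For PHO89 the authors' deposited table gives a log2 fold change of 4.09 in crz1 cells (FDR = 1.49e-12) and -4.32 in rim101 cells (FDR = 1.10e-16). For PHO84-1 the authors' deposited table gives -1.54 in crz1 cells (FDR = 0.00420) and 4.66 in rim101 cells (FDR = 1.27e-33). For TOH1 the authors' deposited table gives -3.05 in crz1 cells (FDR = 1.17e-11) and 1.90 in rim101 cells (FDR = 3.48e-09). In each of these 3 genes the mutants at 30 min lay on opposite sides of WT at time 0, and both comparisons share those WT libraries. Such comparisons mix strain and time. TOH1 in crz1 cells had 27.1, 22.7 and 23.0 scaled RPKM already at time 0, against 136, 193 and 190 in WT cells.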

How the data were processed

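RNA was measured in 32 libraries of 12 groups (3 strains at 4 times); the crz1 and rim101 libraries of 30 min are the subject. Reads were aligned with Bowtie2 and compared with edgeR, per the submitters' processing notes, with versions and genome build not given in the sources used here. The authors deposited RPKM values per gene and library, and a table of log2 fold changes with p-values and FDR against WT at time 0. RPKM are not counts, so no count test was run.

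Libraries were scaled by the median of ratios over the 3063 genes above 0 in every library, because library kinds (cut at a median of 40 RPKM, 9 libraries above it) are unevenly spread over the strains at 30 min. Genes with a mean of at least 1 RPKM (4226 of 5040) were tested with limma 3.58.1 in R 4.3.3 on log2(scaled RPKM + 1), with a pseudocount of 1, a trended variance and 20 residual degrees of freedom; differences of low genes are understated on that scale. Figures were drawn with matplotlib 3.10.9. The fit was tested on simulated data. There 51 of 100 genes with a log2 difference of 1.5 were called, 77 of 100 with 3, and 5 of 4026 unchanged ones. A gene that did not pass may therefore still differ. The simulated noise was independent between genes and libraries, without kinds of library or a floor for low values. The simulated counts are therefore no error rates for these data. Members, the 27 gene lists and tests were chosen with earlier results of these data known. Named genes were RIM101, CRZ1, the 12 with symbols most higher and the 12 most lower among genes past an adjusted p of 0.05 and 2-fold, with a mean of at least 10 scaled RPKM, no overlap and the same call as deposited and quantile-normalized; 3 each way without symbols; and up to 3 per list. Gene names came from the authors' table and RefSeq ASM2700v1, where 5040 IDs matched; coordinates are not given because the files name no build. Same-numbered libraries of the strains were not treated as pairs. Alternatives were other scalings, pseudocounts, filters and fits, and leaving out each library.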

Additional observations from a re-analysis of the deposited data

Results flagged for a closer look

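The change from time 0 to 30 min differed between crz1 and rim101 cells for 19 named genes, by an interaction term in the limma fit. The call was an adjusted p under 0.05 and at least 2-fold, and 43 of all 4226 tested genes (1.02%) passed it. All named genes except RIM101 and CRZ1 were chosen by their 30 min difference. That difference enters this term, so the 19 are no independent result. In rim101 cells the kind of library also changed from time 0 to 30 min, so time and kind cannot be told apart there. Values are log2 differences of changes, crz1 minus rim101; where a group is listed at 0 in every library they depend on the added 1 and give no fold. The change was more positive in crz1 cells for ZPS1 (9.22), PAS_chr4_0359 (7.74), PAS_chr4_0363 (5.86), PHO89 (5.83), MIT1 (5.69), FET4-1 (3.56), YPS1-2 (3.31) and ENA2 (1.44). It was more negative in crz1 cells for FRE3 (-8.06), PHO84-1 (-7.72), PHO84-2 (-6.64), FRE2-1 (-6.46), PAS_chr2-1_0270 (-4.90), MNN2-3 (-4.26), PAS_chr1-1_0101 (-4.15), FTR1 (-3.88), GAS1-1 (-3.26), PAS_chr1-4_0410 (-2.87) and TOH1 (-2.24). For 8 of the 19 the call held under every alternative that was run; the other 11 lost it under at least 1. With crz1 replicate 1 as the only crz1 library of 30 min, the calls of FET4-1, FTR1, MIT1, PAS_chr2-1_0270 and PAS_chr4_0363 were lost (adjusted p = 0.129, 0.0634, 0.193, 0.108 and 0.193). The value of PAS_chr2-1_0270 was -2.64 without rim101 replicate 1 of time 0, and its call was kept (adjusted p = 0.0225).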

How the results depend on the processing

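For the 30 min difference (130 genes), the count was 72 with crz1 replicate 1 as the only crz1 library and 77 when only the 5 libraries were fitted; with library type as a covariate it was 153 (54 higher, 99 lower), and leaving out 1 library gave 77 to 158 (85 without rim101 replicate 1, 77 without rim101 replicate 2). For the change since time 0 (43 genes), it was 23 among genes with a mean of at least 10 RPKM, 27 with only the libraries of the contrast, 28 with a pseudocount of 0.1 and 18 with crz1 replicate 1 alone; leaving out 1 library gave 23 to 43 (25 without rim101 replicate 2 of time 0, 24 without rim101 replicate 1 of 30 min, 23 without rim101 replicate 2 of 30 min). At time 0 (15 genes, 8 higher and 7 lower), it was 4 with only the libraries of the contrast and 8 with a pseudocount of 5, leaving out 1 library gave 6 to 18 (6 without rim101 replicate 2), and quantile normalization gave 7 higher and 4 lower. What moved the counts was not tested.

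With the replicate number as a block, the counts were 133 (56 higher, 77 lower), 49 and 13; a block of strain and number gave 53 for the change since time 0. Deviations of same-numbered crz1 and rim101 libraries correlated at 0.046 and 0.054 at 30 min and at 0.466 and 0.498 at time 0. Those of 30 min and time 0 correlated at 0.347, -0.029 and 0.357 in crz1 for numbers 1, 2 and 3, and at 0.146 in rim101. The strains share only 2 numbers and nothing in the labels says what a number marks, so pairing was not shown. MRP8 and ALG11 lost the call with the replicate block (adjusted p = 0.0533 and 0.0618).

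Among 46 named genes, 644 of 732 alternatives kept the 30 min result on its side of the threshold, 88 lost the call and none reversed it. Where the groups do not overlap, leaving out libraries of 30 min could not reverse the sign. In all alternatives 26 genes kept their result, and CRZ1, which was never called, is counted among them. Genes named by the size of their difference had to pass as deposited and quantile-normalized, so those alternatives could not fail for them. MNN2-3, NRG1 and OSH3 lost it only when just the 5 libraries were fitted (adjusted p = 0.185, 0.184 and 0.205). Depths of 4.95 to 13.0 M reads limit what can be said of genes below about 1 scaled RPKM.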

Other observations

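The following genes were chosen after their values were seen. PRO1, which encodes gamma-glutamyl kinase, had 132, 178 and 171 scaled RPKM in crz1 cells, against 76.0 and 78.8 in rim101 cells (log2 1.03 ± 0.27, adjusted p = 0.0293, limma). PRO2, for the next enzyme, had 206, 272 and 267 scaled RPKM in crz1 cells, against 123 and 114 in rim101 cells (1.05 ± 0.19, adjusted p = 9.12e-04). PAS_chr3_0017, described by a pyrroline-5-carboxylate reductase domain, had 74.3, 145 and 113 scaled RPKM in crz1 cells, against 3.96 and 7.92 in rim101 cells (4.02 ± 0.50, adjusted p = 6.47e-06). With crz1 replicate 1 alone PAS_chr3_0017 passed (adjusted p = 0.00508), and PRO1 (0.903) and PRO2 (0.198) did not. PRO1 also lost the call as deposited (0.244) and with the kind of library as a covariate (0.0766). SNF3, a glucose sensor of the plasma membrane, had 7.11, 10.4 and 10.9 scaled RPKM in crz1 cells, against 0.743 and 0 in rim101 cells (adjusted p = 8.77e-07). The uncharacterized gene PAS_chr3_0486 had 885, 2225 and 1970 scaled RPKM in crz1 cells, against 14.8 and 18.6 in rim101 cells and 312, 583 and 650.2 in WT cells (6.48 ± 0.91, adjusted p = 3.64e-05).

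YOR1-1, an ABC transporter, had 17.0 and 16.2 scaled RPKM in rim101 cells and QDR3, described as a multidrug transporter, 9.39 and 8.39, and both were listed at 0 in all 3 crz1 and all 3 WT libraries (adjusted p = 1.01e-07 and 2.25e-07 between the mutants). In another set, the crz1 values lay below those of both rim101 and WT. PAS_chr3_1232, uncharacterized, had 49.3, 61.9 and 55.6 scaled RPKM in crz1 cells, against 248 and 249 in rim101 cells and 185, 180 and 193 in WT cells (-2.15 ± 0.25 between the mutants, adjusted p = 2.20e-06). FRQ1, a calcium-binding protein, had 41.5, 48.7 and 43.7 scaled RPKM in crz1 cells, against 164 and 127 in rim101 cells and 98.8, 97.4 and 108 in WT cells (-1.67 ± 0.25, adjusted p = 7.79e-05). PEP12, a receptor of vesicle fusion in the endosome, had 12.4, 12.4 and 13.7 scaled RPKM in crz1 cells, against 54.8 and 54.3 in rim101 cells and 38.6, 33.3 and 32.8 in WT cells (-2.01 ± 0.25, adjusted p = 6.47e-06). All 3 also passed with crz1 replicate 1 alone (adjusted p = 2.75e-04, 0.00557 and 0.00114).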
